A study of Mus musculus with 12 samples.

Results

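H3K4me3 peaks found in Min6 cells given DMSO and missing from cells given the JNK inhibitor were examined one by one. Members were selected on the measured peak calls themselves. A peak was a member when it stood in the DMSO list, was under 5000 bp wide, and shared no base with any peak of the JNK inhibitor (JNKi) list. The members numbered 1279 of the 19372 DMSO peaks, a share of 6.60%. Only 31 of them (2.42%) reached an irreproducible discovery rate (IDR) of at most 0.05, the agreement measure by which the replicates were paired. The selection is thus nearly all of peaks outside that limit. The other 18093 DMSO peaks overlapped a JNKi peak and are called shared here, and 78% of them reached it. Weak shared peaks missed it too. In the 2 lowest deciles of the DMSO list by peak-call −log10 p, 0 of 780 and 0 of 404 members reached it. So did 0 of 1157 and 0 of 1542 shared peaks there. In the third decile 29.7% of members and 46.6% of shared peaks did. The width limit removed nothing, because every one of the 565 DMSO peaks of 5000 bp or more was shared. The opposite selection, JNKi peaks with no DMSO peak under them, held 1085 of 19032 peaks, a share of 5.70%.

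The study measured CUT&RUN, in which an antibody directs a nuclease to release the DNA around a protein or histone mark, in Min6, a β-cell line derived from a mouse insulinoma. Cells were grown for 3 days and held for the last 48 hours in either SP600125 at 20 µM, which inhibits the kinase JNK, or DMSO, its solvent. Each condition was profiled with antibodies to H3K4me3, to cJun, the AP-1 subunit that JNK phosphorylates, and with IgG as the background control. The 6 groups had 2 biological replicates each, 12 samples in all, with 550000 cells in each reaction. By the labels and methods the 2 conditions differ in SP600125 alone, but these do not show whether the libraries were otherwise alike. A single cancer-derived line cannot stand for islets of an animal. Each H3K4me3 and cJun group is held as 1 list of peaks called in both replicates. A member therefore has a value in each of the 2 DMSO replicates, and needed only to miss being called in 1 of the 2 JNKi replicates to be absent there. No H3K4me3 value under JNKi could be given for any member, and the read counts behind the peaks were not analysed here.

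H3K4me3 is trimethylation of lysine 4 of histone H3, which SET1 and MLL methyltransferase complexes place on nucleosomes beside transcription start sites. It is strongest at active promoters rich in CpG dinucleotides, where CpG-binding subunits help to recruit the enzymes, and weaker at CpG-poor promoters and at enhancers. AP-1 dimers of Jun and Fos proteins bind a short palindrome-like site that is common in enhancers. The H3K4me3 antibody is the assay's positive control. The cell type was checked against its markers. Of 8 β-cell markers, 7 had an H3K4me3 peak over the promoter in DMSO and in JNKi, all but Ins1, while none of the 2 δ-cell, 4 acinar, 3 duct, 3 endothelial or 3 immune markers did in either list. Of 3 α-cell markers 2 were marked in both lists, and of 3 fibroblast markers 1 in DMSO.

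Sequence around the summit is shown for 3 kinds of member that the results below turn on. All are from the forward strand of GRCm38.p6, 200 bases each, placed off annotated exons. The first kind lies under a DMSO cJun peak and holds an AP-1 site, TGACTCA or its reverse complement TGAGTCA, in capitals. They are 3 of the strongest such members. The first, chr11:103003364-103003563, is intronic and nearest to Mir6931. The second, chr19:47222821-47223020, lies 1128 bp from a start site of AC132288.1. The third, chr19:40996012-40996211, lies 1311 bp from the start of Blnk, a B-cell adaptor gene.
Mir6931 member: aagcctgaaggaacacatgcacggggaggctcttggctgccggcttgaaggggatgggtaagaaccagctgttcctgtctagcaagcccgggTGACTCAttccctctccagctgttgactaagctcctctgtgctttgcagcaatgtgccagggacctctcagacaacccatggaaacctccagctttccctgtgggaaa
AC132288.1 member: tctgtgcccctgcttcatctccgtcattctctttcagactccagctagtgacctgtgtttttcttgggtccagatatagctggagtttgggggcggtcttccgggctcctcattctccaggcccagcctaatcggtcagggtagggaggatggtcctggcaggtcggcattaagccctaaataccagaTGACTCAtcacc
Blnk member: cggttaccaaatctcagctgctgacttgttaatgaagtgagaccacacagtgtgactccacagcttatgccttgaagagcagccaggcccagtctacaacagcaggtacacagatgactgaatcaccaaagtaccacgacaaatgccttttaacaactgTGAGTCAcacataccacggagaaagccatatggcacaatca

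The second kind is a CpG-rich promoter, with each CpG in capitals. Tgif2, at chr2:156840540-156840739, encodes a homeodomain repressor of TGF-β signalling. Eva1a, at chr6:82042341-82042540, encodes a membrane protein of autophagy. Irf5, at chr6:29526808-29527007, encodes an interferon regulatory factor. The windows held 19, 10 and 26 CpG.
Tgif2 member: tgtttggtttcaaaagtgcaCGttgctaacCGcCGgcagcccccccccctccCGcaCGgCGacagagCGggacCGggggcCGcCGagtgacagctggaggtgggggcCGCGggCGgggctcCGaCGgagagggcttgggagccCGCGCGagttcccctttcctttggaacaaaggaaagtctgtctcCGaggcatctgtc
Eva1a member: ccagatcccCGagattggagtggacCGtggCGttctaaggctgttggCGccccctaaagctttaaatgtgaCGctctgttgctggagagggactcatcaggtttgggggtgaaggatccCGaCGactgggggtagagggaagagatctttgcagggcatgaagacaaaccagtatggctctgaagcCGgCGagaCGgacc
Irf5 member: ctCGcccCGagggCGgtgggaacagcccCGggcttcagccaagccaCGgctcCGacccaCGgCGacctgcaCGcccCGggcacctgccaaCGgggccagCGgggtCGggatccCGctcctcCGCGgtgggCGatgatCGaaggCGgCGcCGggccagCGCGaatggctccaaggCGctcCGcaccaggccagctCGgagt

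The third kind is a CpG-poor promoter, again with each CpG in capitals. Nupr1, a stress-induced chromatin protein, is shown at chr7:126625123-126625322. Gbp2, an interferon-induced GTPase, is shown at chr3:142620402-142620601. These windows are the exon-free stretches of the peak nearest to the summit, and held 2 and 0 CpG. The window at another CpG-poor promoter, that of Rgma at chr7:73391514-73391713 (not printed), held 11 CpG, beside 10 in the Eva1a window. The count in a window therefore does not separate the kinds.
Nupr1 member: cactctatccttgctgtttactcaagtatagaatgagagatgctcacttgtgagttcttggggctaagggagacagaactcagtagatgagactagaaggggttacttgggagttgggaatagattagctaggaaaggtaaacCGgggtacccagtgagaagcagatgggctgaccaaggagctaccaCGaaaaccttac
Gbp2 member: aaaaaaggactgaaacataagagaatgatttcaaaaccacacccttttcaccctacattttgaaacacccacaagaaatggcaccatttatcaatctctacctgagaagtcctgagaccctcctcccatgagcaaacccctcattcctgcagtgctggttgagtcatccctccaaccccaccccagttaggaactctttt

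The members were the weak end of the DMSO list. Strength is the −log10 p of the peak call, and a peak's merged value is that of its weaker replicate in 100% of peaks. Members had a median of 5.93 and a highest value of 26.3, beside a median of 114 in shared peaks. Their median rank percentile was 7.71 on a scale where 100 is the strongest peak, and the highest member stood at 32.8. In deciles of the list, the lowest held 780 members, or 40.3% of its 1937 peaks. The next held 404, or 20.8%, the one above it 91, or 4.72%, and the fourth 4, or 0.206%. The upper 6 deciles held 0 of 1937 or 1938 peaks each, which allows a share of up to 0.155% in each (3 counts, counting error only). In these lists, absence from the JNKi list was seen only in the 4 lowest deciles. Strength helped to fix membership, so this is a description with no test.

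**Figure D1:**
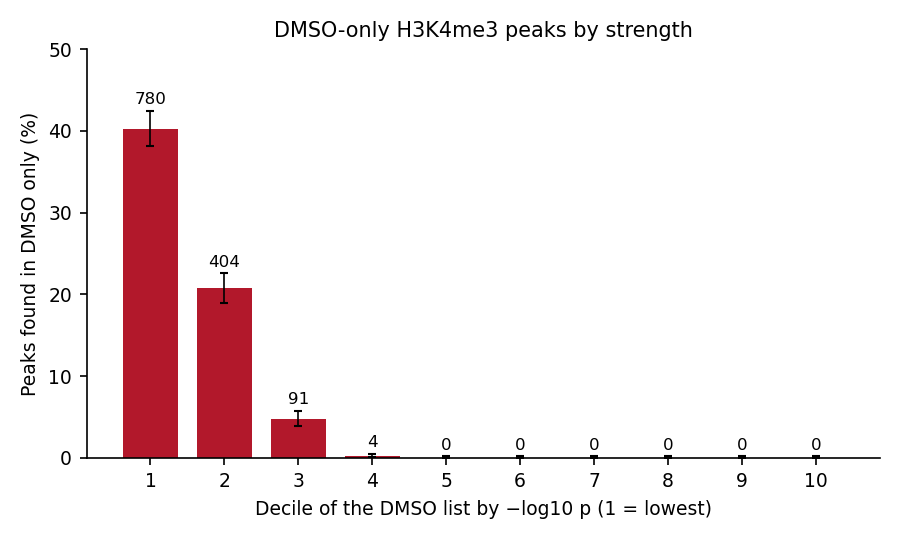
Share of DMSO H3K4me3 peaks found in DMSO only (vertical axis, %) in each decile of the DMSO list by −log10 p of the weaker replicate (horizontal axis, 1 is the lowest); error bars are 95% Wilson intervals for counting error and the number over each bar counts the members. The share drops from 40.3% in the lowest decile to 0.206% in the fourth and 0 above it.

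Both DMSO replicates contributed alike; first and second follow the order of the values in the list, which does not say which labelled replicate each one is. The median was 7.07 in the first replicate and 7.24 in the second, and the first was the higher for 606 members and the second for 673. The values of a single member were far less alike, with a median difference of 2.38 and a largest of 30.77 between replicates. Spearman's rho between the replicates across the 1279 members was 0.33, a description over peaks that share their libraries. Across the 4535 shared peaks of the lowest 3 deciles rho was 0.23. Both replicates reached 10 in 149 members (11.6%), 15 in 26 and 20 in 6. Among JNKi-only peaks the same counts were 159, 51 and 14. Members made up 0.937% of DMSO peaks at 10 or more, 0.178% at 15 and 0.0436% at 20, and JNKi-only peaks 1.01%, 0.352% and 0.102% of JNKi peaks. The JNKi replicates were less alike, with medians of 165 and 119 over all JNKi peaks, beside 125 and 105 over all DMSO peaks. Shared peaks of the lowest 3 deciles had medians of 17.2 and 11.1 in the JNKi list and 13.1 and 12.7 in the DMSO list. Whether this imbalance entered membership was not tested.

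**Figure D2:**
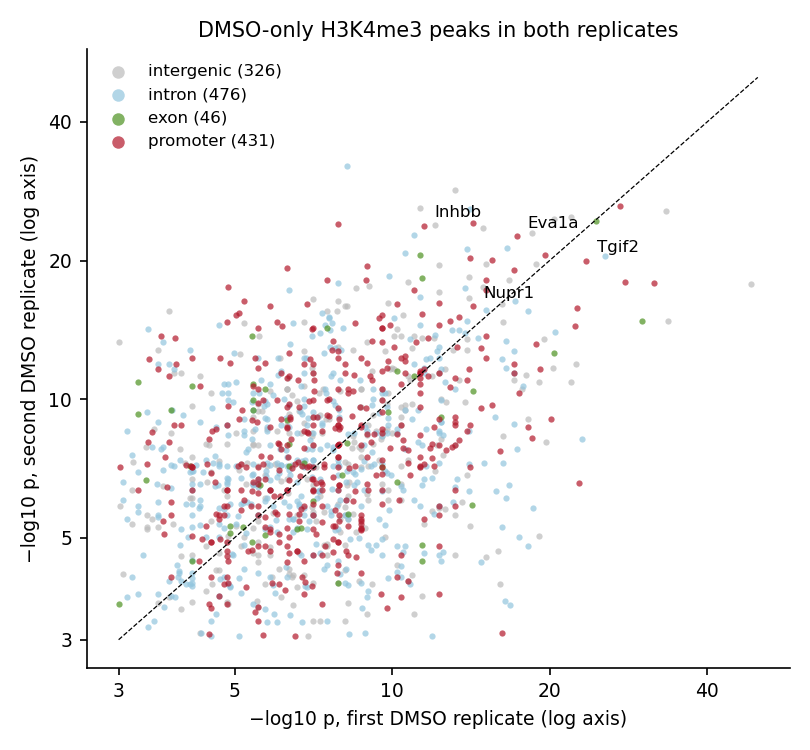
−log10 p of each DMSO-only H3K4me3 peak in the first (horizontal) and second (vertical) DMSO replicate, both on log axes, coloured by location with the number of peaks in the key; the dashed line marks equal values. Points scatter on both sides of the line, and few reach 20 in both replicates; Tgif2 and Eva1a are among the highest at promoters.

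Members were narrow. Their widths ran from 187 to 2181 bp with a median of 498 bp, against 1966 bp for shared peaks and 777 bp for shared peaks of the lowest 3 deciles. The stretch called in both replicates covered a median 59.5% of the merged peak, against 78.2% in those weak shared peaks. The widest member lay in an intron at chr2:129812579-129814759, 13152 bp from Stk35, with −log10 p of 7.71 and 7.15. At the edge of the rule, the nearest member to a JNKi peak stood 36 bp from it, next to Gm3693, and the next ones 38 and 52 bp away. On the other side, the shared peak with the smallest overlap shared 57 bp, near Nt5c2, and the next 102 and 107 bp.

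Of the 20 strongest members, 5 had a start of a protein-coding gene within 3 kb and 8 in intergenic sequence. The highest, at chr15:101316015-101316235, reached 27.3 in the first replicate and 26.3 in the second and lay 23 bp from a start of the transcript Gm49499, which awaits experimental support. The next, at chr12:86799014-86799241, reached 33.4 and 25.6 in intergenic sequence. The third, at chr8:121840724-121840923, reached 24.5 and 24.4 over an exon, 7170 bp from a start of the lincRNA Gm42047, and 92.8% of the 500 bp around its summit was repeat. These 3 were 221, 228 and 200 bp wide, far below the members' median width. An intronic member 5101 bp from Irs2, which encodes the adaptor that carries insulin and IGF signals in β cells, reached 25.5 and 20.5. Another, 26478 bp from Wnt3a, a Wnt ligand gene, in an intron and CpG-rich, reached 17.2 and 16.3. In the members as a whole, those 500 bp were more than 50% repeat in 3.21%, and in 1.41% of shared peaks; in the lowest 3 deciles the shares were 3.14% and 3.18%.

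Members lay in gene bodies and between genes more often than shared peaks did. Promoters, taken as 3 kb on either side of an annotated start, held 431 members, or 33.7% (95% Wilson interval 31.2 to 36.3). Introns held 476 (37.2%), intergenic sequence 326 (25.5%) and exons 46 (3.6%). Of all DMSO peaks, 71.9% were at promoters, and of shared peaks 74.6%. Weak peaks were at promoters less often in any case, so the comparison was repeated among weak peaks. In the lowest 3 deciles, 33.7% of members (31.2 to 36.4) and 42.1% of shared peaks (40.7 to 43.5) were at promoters. Introns showed the opposite, with 37.3% of members (34.7 to 40) and 29.1% of shared peaks (27.8 to 30.4), and intergenic shares were 25.4% and 25.3%. Strength was still not matched there, since members had a median −log10 p of 5.93 over all strengths and these shared peaks 9.79. Within the lowest decile 31% of members (27.9 to 34.4) and 43% of shared peaks (40.1 to 45.8) were at promoters, and 40.9% and 32.2% in introns. Within the second decile the promoter shares were 38.6% (34 to 43.4) and 40.7% (38.2 to 43.1) and the intron shares 31.9% and 30.9%, so the gap was seen in the lowest decile and lay within counting error in the second. In the third decile, with 91 members, 35.2% (26.1 to 45.4) and 42.8% (40.5 to 45) were at promoters. These intervals cover counting error only, since peaks of 1 list share their libraries.

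The members differed from the mirror set of JNKi-only peaks in the same deciles. A start site lay within 1 kb of 20.5% of members (18.3 to 22.8), of 11.5% of JNKi-only peaks (9.76 to 13.6), and of 29.5% of weak shared peaks of the DMSO list. CpG-rich sequence, here at least 50% GC with an observed-to-expected CpG ratio of at least 0.6 in 500 bp around the summit, was found in 16.7% of members (14.8 to 18.9) and in 4.37% of JNKi-only peaks (3.30 to 5.77). Weak shared peaks were CpG-rich in 20.8% of the DMSO list and 22.2% of the JNKi list, so the members sat near the weak shared peaks and the JNKi-only peaks well below. Within the lowest decile alone, 15% of members and 3.78% of JNKi-only peaks were CpG-rich, and within the second 19.1% and 5.2%. The order turned, within the members' counting error, when DMSO peaks were limited to IDR of at most 0.05. The shares were then 12.9% (5.13 to 28.9) of the 31 members left and 18.4% (17.3 to 19.5) of 4794 JNKi peaks without such a DMSO peak. That limit shortens the DMSO list by construction, and most of those 4794 peaks overlapped a DMSO peak that it removed. At promoters alone the shares were 37.4% of 430 members, 41.0% of 1909 shared peaks and 13.4% of 276 JNKi-only peaks. Away from promoters they were 6.15%, 6.17% and 1.25%. Over all strengths 213 members were CpG-rich, 16.7%, beside 49.7% of all DMSO peaks. The median GC content was 49.6% in members and 47.4% in JNKi-only peaks. Whether base composition entered through the libraries or the cells was not tested.

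**Figure D3:**
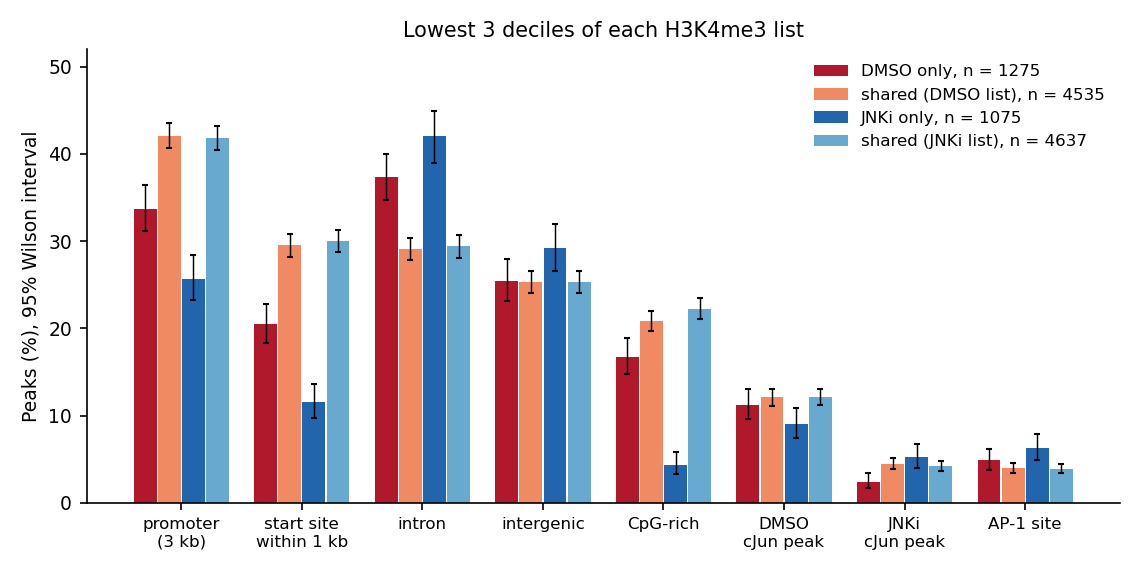
Percent of peaks (vertical axis, 95% Wilson intervals for counting error) with each feature (horizontal axis) in the lowest 3 deciles of the DMSO and JNKi H3K4me3 lists, for DMSO-only, shared and JNKi-only peaks. DMSO-only bars lie between the shared and JNKi-only bars for promoters and for start sites within 1 kb, and CpG-rich sequence is 16.7% in DMSO-only and 4.37% in JNKi-only peaks.

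Members lay about as far from the nearest shared peak as weak shared peaks lay from the nearest other shared peak. The median distance to the nearest shared peak was 16245 bp (13702 to 18549), and shared peaks of the lowest 3 deciles lay a median 16327 bp (15248 to 17494) from the nearest other shared peak. A shared peak was within 2 kb of 206 members, 16.1% (14.2 to 18.2), against 17.2% (16.1 to 18.3) of those weak shared peaks. The nearby peaks were 202 distinct ones, and for 151 of the 206 members (73.3%) the neighbour was at a promoter, near the 74.6% of all shared peaks. Promoter members had such a neighbour in 24.6% (20.8 to 28.9), the 46 exon members in 19.6% (10.7 to 33.2), intronic members in 13.9% and intergenic members in 7.67% (5.25 to 11.1). Map3k1, a kinase upstream of JNK picked out after its values were seen, gives an example of a flank. Its member, 5.94 and 6.15 in the 2 replicates, lay 183 bp from a shared peak, and the promoter kept a JNKi peak. A JNKi peak lay within 1 kb of 142 members and a JNKi-only peak within 1 kb of 12. Members were also scattered among themselves, with a median of 326997 bp to the nearest other member, and no protein-coding gene was the nearest to more than 3 of them. Across chromosomes 1 to 19 and X, members made up from 2.92% of peaks on X to 8.45% on 15.

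**Figure D4:**
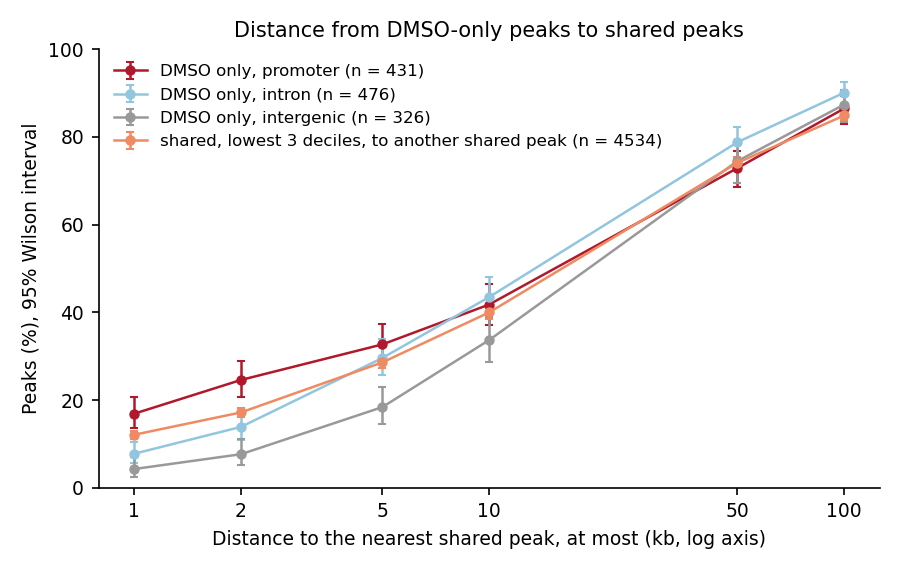
Cumulative percent of peaks (vertical axis, 95% Wilson intervals) with a shared H3K4me3 peak within the distance on the horizontal axis (kb, log axis), for DMSO-only peaks by location (the 46 exon members are not drawn) and for weak shared peaks measured to another shared peak. Of the lines drawn, promoter members lie highest at 2 kb, at 24.6%, and intergenic members lowest, at 7.67%; the 4 lines draw together at 50 and 100 kb.

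At the level of genes, members changed the set of marked promoters by a small amount. A protein-coding gene was called marked when a peak touched 1 kb on either side of any of its starts, which 12902 of 21938 genes met in DMSO and 12777 in JNKi. Members touched the promoters of 219 genes, and 33 of these still had a JNKi peak at a start. The remaining 186 genes, 0.848% of all, carried a member and no JNKi peak, and are called marked in DMSO only. Likewise 61 genes, 0.278%, carried a JNKi-only peak and no DMSO peak, and are called marked in JNKi only. Counting any peak, shared ones with an edge in the window included, 193 genes were marked in DMSO and not in JNKi and 68 the other way. The strongest member was CpG-rich in 111 of the 186 genes, 59.7% (52.5 to 66.5), and the strongest JNKi-only peak in 22 of the 61. Both replicates reached 10 in 24 of the 186 genes and in 7 of the 61. The median gap from these members to the nearest JNKi peak was 43383 bp, and in 6 genes it was within 2 kb. Whether any of these genes changed in expression is not shown by these lists.

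The 20 highest of these genes, ranked by the weaker replicate and leaving out names of predicted genes, ran from 20.0 to 10.8. Tgif2 led, with 23.5 in the first replicate and 20.0 in the second, over a peak of 1276 bp whose nearest JNKi peak was 19673 bp away. Eva1a followed with 17.3 and 22.6. H2-Q1, a class I MHC gene, reached 15.1 and 17.3, and it belongs to a family of similar copies among which short reads may be misplaced. Nupr1 reached 14.3 and 15.9, and Gbp2 15.1 and 13.7. Irf5 reached 12.3 and 14.5. In each of these genes both replicates stood above 12, and none had a JNKi peak within 10 kb.

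The other genes of the 20 had a weaker replicate of 14.1 or less. Fgf8, a fibroblast growth factor, reached 14.1 and 20.3, with a JNKi peak 4569 bp away. Inhbb, the βB subunit of activins and inhibins, reached 11.5 and 23.8, the widest gap between replicates in the 20. Rgma, a BMP co-receptor, reached 15.1 and 12.3, and Bmper, a secreted BMP-binding protein, 17.1 and 11.4. Sim2, a bHLH-PAS transcription factor, reached 17.1 and 11.9. Epas1, which encodes HIF-2α, reached 19.2 and 11.6. Hhipl1, related to the hedgehog-interacting protein, reached 12.3 and 16.2.

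Hrk, a BH3-only promoter of apoptosis, reached 12.3 and 11.4, and a shared peak lay 826 bp from its member. Pklr, the pyruvate kinase of liver and red cells that is also glucose-responsive in β cells, reached 13.2 and 11.1, with a JNKi peak 3508 bp away. Doc2b, a calcium sensor of vesicle fusion that acts in insulin secretion, reached 11.3 and 11.1. Upk3a, a uroplakin, reached 13.4 and 15.1, with a JNKi peak 3983 bp away. Paqr5, a membrane progestin receptor, reached 11.4 and 15.3, Hspg2, which encodes perlecan, 11.3 and 11.4, and Lrrn4 11.3 and 10.8. Of the 20, 15 were CpG-rich, the exceptions being Nupr1, Gbp2, Upk3a, Rgma and Pklr. None of the 20 members lay under a cJun peak of either list, a count too small to say much. Over all 186 genes a DMSO cJun peak lay on the member in 1 and a JNKi cJun peak in 0. Of the 431 members within 3 kb of a start, 28 (6.5%) lay under a DMSO cJun peak.

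**Figure D5:**
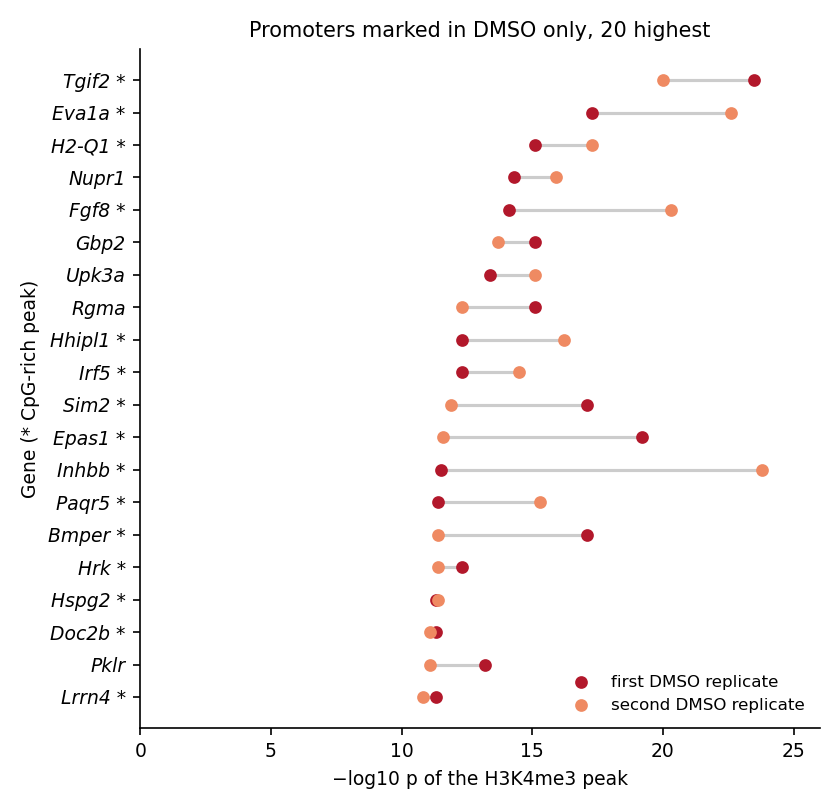
−log10 p of the H3K4me3 peak (horizontal axis) in the first and second DMSO replicate for the 20 highest promoters marked in DMSO only (vertical axis), grey lines joining the replicates and asterisks marking CpG-rich peaks. Tgif2 and Eva1a stand apart at 17.3 or more in both replicates, and the lower 10 genes have a weaker replicate between 10.8 and 11.9.

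Gene lists for the tissue and the treatment are set beside the 0.848% of all protein-coding genes marked in DMSO only, a share so low that an empty list of this size says little about the list. Of 24 genes of the JNK pathway and 20 of the unfolded protein response, every promoter was marked in both conditions and none was marked in DMSO only. Of 38 AP-1, ATF and immediate early genes, 36 were marked in each condition and none was marked in DMSO only, although 7 members lay nearest to one of them, 9.59% of the 73 DMSO peaks that did, beside 6.60% of all DMSO peaks. The strongest of those 7 lay 10549 bp from Ier5, also named after its values were seen, with 16.3 and 14.7. None of the insulin and glucose-sensing genes, other islet hormone genes, exocrine genes or disallowed genes (genes kept silent in β cells) was marked in DMSO only.

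Single genes of the other lists made up the rest. Cdkn1c, which encodes the cell cycle inhibitor p57, stood at 9.56 and 9.97, 99 bp from its start. Of 20 apoptosis genes, 2 were marked in DMSO only, Hrk as above and Tnfrsf10b, the TRAIL receptor, at 12.3 and 5.6. Of 30 channel and exocytosis genes, Kcnk3, a leak potassium channel, was marked in DMSO only at 6.29 and 9.63. Cacna1c, the L-type calcium channel of β cells, had a member at 5.52 and 8.91 over one start and a JNKi peak over another. Itgb4, an integrin subunit, had 2 members, at 9.56 and 14.3 by its start and at 8.94 and 13.3. Wnt1, the only one of 32 developmental regulators, stood at 6.08 and 7.02. In each gene named in this paragraph, other than Hrk, the weaker replicate was under 10. For the whole set of members, the nearest protein-coding gene had a JNKi peak at its promoter in 853 cases, 66.7%. This was so for 90.9% of all DMSO peaks and 85.1% of shared peaks of the lowest 3 deciles, but a shared peak at a promoter brings its own JNKi peak there, so the rule enters that difference.

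cJun peaks of the DMSO list lay on about as large a share of members as of all H3K4me3 peaks, and on a smaller share of the stronger members. The DMSO cJun list held 4960 peaks and the JNKi list 1632. A DMSO cJun peak overlapped 143 members, 11.2% (9.57 to 13.0), beside 12.6% of all DMSO H3K4me3 peaks and 12.1% (11.1 to 13.0) of weak shared ones. By decile from the lowest, the shares of members and shared peaks were 11.5% and 14.3%, 12.4% and 12.4%, and in the third decile 3.3% (1.13 to 9.25, 3 of 91) and 10.3% (9.04 to 11.8). Of the 149 members at 10 or more in both replicates, 5.37% (2.75 to 10.2) lay under one. A JNKi cJun peak overlapped 31 members, 2.42% (1.71 to 3.42), beside 4.42% of all and 4.48% (3.91 to 5.12) of weak shared peaks. Within the lowest decile the shares were 2.56% (1.67 to 3.93) of members and 5.96% (4.74 to 7.48) of shared peaks, and within the second 2.48% (1.35 to 4.5) and 4.35% (3.44 to 5.48). Both lists covered 27 members, the DMSO list alone 116 and the JNKi list alone 4, and 1132 (88.5%) had neither. The cJun peaks on members were 142 distinct ones, of which 30 were overlapped by a JNKi cJun peak, 21.1% (15.2 to 28.6). That share was 23.6% for all DMSO cJun peaks and 22.9% (21.3 to 24.5) for those on shared H3K4me3 peaks, so cJun peaks on members were missing from the JNKi list about as often as elsewhere. cJun peaks lay on 6.50% of promoter members, 13.7% of intronic and 13.5% of intergenic ones. In the lowest 3 deciles the shares were 6.51% (4.54 to 9.25) of promoter members and 8.75% (7.56 to 10.1) of shared promoter peaks, and away from promoters 13.6% and 14.5%. These overlap shares were not matched for peak width, a median of 498 bp in members, 777 bp in weak shared and 1839 bp in all DMSO peaks. In the third decile 20.9% of members and 1.91% of shared peaks were under 300 bp wide. Whether width entered the shares was not tested.

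Of the 143 members under a DMSO cJun peak, 28 were at promoters. The strongest, at chr4:110152279-110153055, lay in intergenic sequence 134222 bp from Elavl4, with H3K4me3 at 16.2 and 16.1 and cJun at 10.8 and 7.02 in the DMSO replicates, and had no JNKi cJun peak. An intronic member 33866 bp from a start of Pcx, which encodes the pyruvate carboxylase of β-cell anaplerosis, had H3K4me3 at 11 and 22.7 and cJun at 13.1 and 11.6, again without a JNKi cJun peak. One lay 2832 bp from a start of Gm22261, and so at a promoter, and 61549 bp from Nkx2-2, a β-cell identity factor; it had H3K4me3 at 14.8 and 9.54 and cJun at 8.38 and 14.5. A member at chr7:73579101-73580087, 37848 bp from Chd2, kept cJun under JNKi, at 11.5 and 3.63. One member of 233 bp, 45388 bp from Ccr1, lay under the DMSO cJun peak of rank 3, at 96.2 and 103, a peak wider than the member, and also under a JNKi cJun peak at 8.94 and 8.24. At the promoter of Tenm4, which encodes a teneurin, H3K4me3 stood at 10.4 and 10.8 and cJun at 5.23 and 4.61.

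AP-1 sites were about as common in members as in other weak peaks. The 7 letters TGACTCA or TGAGTCA stood within 100 bp of the summit in 62 members, 4.85% (3.8 to 6.17), beside 2.41% of all DMSO peaks. In the lowest 3 deciles the shares were 4.86% (3.81 to 6.18) of members, 3.93% (3.40 to 4.53) of shared peaks and 6.23% (4.94 to 7.84) of JNKi-only peaks. Members and shared peaks held a site in 5.38% and 4.58% within the lowest decile, and both in 3.96% within the second. Within the members, a site was present in 15 of 143 with a DMSO cJun peak, 10.5% (6.46 to 16.6), and in 47 of 1136 without, 4.14% (3.13 to 5.46). The sequences of the Mir6931, AC132288.1 and Blnk members above are 3 of those 15. The Mir6931 member had H3K4me3 at 9.14 and 7.67 and cJun at 12.5 and 14.2, with no JNKi cJun peak. The Blnk member had H3K4me3 at 8.51 and 7.15, cJun at 3.35 and 13.5 in DMSO and at 6.53 and 4.73 under JNKi. Another of the 15 lay 32994 bp from C2cd4a, a gene studied in islets, with H3K4me3 at 3.94 and 3.50 and cJun at 12.4 and 9.08. A matching site says nothing of binding by itself.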

How the data were processed

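CUT&RUN was analysed from 4 peak lists (H3K4me3 and cJun, DMSO and JNKi), each joining 2 biological replicates of Min6 cells; samples were grouped by their labels. Per the labels and the study's methods, the authors trimmed read pairs of 150 bp with Trimmomatic, aligned them to GRCm38 with Bowtie2 2.4.2, filtered with SAMtools 1.16, called narrow peaks against IgG with MACS2 2.2.7.1 and paired replicates by IDR (irreproducible discovery rate). The methods state default calling, whereas the deposited −log10 p-values go down to just above 3 (p of 0.001). The deposited score is a rescaled IDR and was used only to read the lists. Peak positions, summits and replicate values were taken as the authors deposited them. Reads, IgG libraries and spike-in scaling were not analysed here, so duplicates and depth, which move a p-value, could not be checked.

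Overlap meant 1 shared base. Promoters were 3 kb and gene windows 1 kb around starts in GENCODE vM21 (basic), 77221 in all. Peaks were classed by their midpoint. Motifs and CpG content were read from GRCm38.p6 (RefSeq) with Python 3.11.15 and pandas 2.3.3, and the code was tested on simulated intervals. Intervals are 95% Wilson intervals for shares and order-statistic intervals for medians, for counting error only. No test was run, because the rule used the same calls and peaks are not replicates. The members and gene lists were chosen with earlier results of these data known. Genes were named by rule: the 20 strongest members, the 20 strongest promoters marked in DMSO only without predicted names, genes of the fixed lists with a member at the promoter, members at the rule's edges, the 10 strongest members under a cJun peak, and those with an AP-1 site too. IDR, gap, width, chromosome, promoter, cJun, motif, CpG, gene-window and strength settings were varied. One result of the gene lists is not reported here.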

Additional observations from a re-analysis of the deposited data

How the results depend on the processing

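The alternatives gave 99 values for 14 results, of which 55 moved by no more than counting error, or 1.5 times for a count, and 44 moved further. Where the setting itself does not show why a value moved, the cause was not tested. Restricting the lists to chromosomes 1 to 19 and X moved none of the 14. The strength alternative, the JNKi-only gene count and the JNKi-only CpG share were added after seeing the data. No paired analysis was possible because the lists give 1 merged peak per group, and no replicate could be left out, since a peak had to be called in both. The paper states a sequencing depth per sample, but the depth each library reached was not checked here. That limits what absence from a list can mean.

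IDR was not monotone with strength, so an IDR limit removed the strongest peaks as well as the weakest. Of the 100 strongest peaks, 14 in the DMSO list and 5 in the JNKi list passed 0.05. With DMSO peaks limited to IDR of at most 0.05, members numbered 31 and JNKi-only peaks 4794, and the members gave 35.5% intergenic, 9.68% within 2 kb of a shared peak, a median percentile of 26.3, 6.45% with a DMSO cJun peak, 6.45% with AP-1 and 12.9% CpG-rich; genes numbered 5 in DMSO only and 1120 in JNKi only, and 18.4% of JNKi-only peaks were CpG-rich. With JNKi peaks so limited, members numbered 4769 and JNKi-only peaks 67, and the members gave 42.5% at promoters, 24231 bp to a shared peak, 10.1% within 2 kb, a percentile of 14.6, 3.63% with a JNKi cJun peak and 22.2% CpG-rich; genes numbered 1214 and 4, and 5.97% of JNKi-only peaks were CpG-rich.

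With both replicates at 10 or more, members numbered 149 and JNKi-only peaks 159, genes 24 and 7. The members then gave 33.6% intergenic, 19571 bp to a shared peak, 9.40% within 2 kb, a percentile of 20.7, 5.37% with a DMSO and 0.671% with a JNKi cJun peak, 2.68% with AP-1 and 20.8% CpG-rich.

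Requiring no peak of the other list within 1 kb gave 30.9% at promoters, 20746 bp to a shared peak and 6.24% within 2 kb. Promoters of 1 kb gave 20.5% at promoters and 29.2% intergenic. Shared peaks within 5 kb were found for 27.8%. cJun peaks with IDR of at most 0.05 left 0.860% of members under a DMSO and 0.0782% under a JNKi cJun peak. AP-1 within 50 bp of the summit gave 2.66% and in the whole peak 13.8%. The 186 genes exceeded the 61 under every setting but DMSO peaks with IDR of at most 0.05. Either IDR limit shortens 1 list against the other by construction.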
